A study of Mus musculus with 38 samples.

Results

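Among the 53 tRNA isoacceptors counted in mouse sperm, 2 carry glutamate, tRNA-Glu-CTC and tRNA-Glu-TTC, named by their anticodons. Their rows were found by name, as every row starting with tRNA-Glu- among the tRNA reads that matched the genome, and both were counted in all 38 mice. Their values are given as reads per 1000000 reads mapped to the genome, or RPM (the level) and as a percentage of the reads of all 53 isoacceptors in that mouse (the share).

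Transfer RNAs carry amino acids to the ribosome, and glutamate has a tRNA for each of its codons. Mature sperm are poor in intact tRNA but rich in its fragments, mostly from the 5′ end of the molecule, and part of this load is thought to be taken up from the epididymis while sperm mature. 5′ fragments of tRNA-Gly and tRNA-Glu are known as the leading species in mouse sperm, and their levels have been followed in studies of paternal diet.

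Sperm were left to swim out of minced epididymides of C57BL6/J males, and their small RNA was sequenced; all males were fasted overnight and killed at 11 to 13 weeks of age. The dam's diet from plug to weaning at 21 days gives the first letters of each group and the male's own diet after weaning the last, where CT is a control diet with 20% protein and PR a protein-restricted diet with 8%. The CTCT group (CT throughout) held 10 mice, CTPR (CT, then PR) 9, PRCT (PR, then CT) 9 and PRPR (PR throughout) 10, from 21 litters, 17 of which gave a mouse to each of the 2 post-weaning diets. Mice 47I1 and 47I2 are CTCT and CTPR in their labels but the other way round in the study's sample table, and the labels were followed.

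Reads mapped to the genome numbered 4465281 to 7612603 per mouse, and tRNA made up 2.75% to 24.7% of them. The hairpins of mir-34b and mir-34c, microRNAs of spermatogenic cells, had reads in all 38 mice and that of mir-449a in 36. Of 18 hairpins that mark other cells (liver, blood, muscle, epithelium and nerve), 17 were detected in CTCT mice and 18 in CTPR mice, led by mir-143, a microRNA of smooth muscle and stroma, with 55.9 to 7579 RPM. The median of mir-143 was 1159 RPM and that of mir-34c 379. Reads in all 38 mice were also found for mir-200c (median 166 RPM), mir-145a (95.1), mir-141 (19.6) and mir-223 (9.65). Hairpins mir-451a and mir-142a of blood cells had reads in 37 mice, and those of mir-1a and mir-133a in 34 or 35. Over all mice the other-cell hairpins summed to a median of 1525 RPM, against 400 for the spermatogenic ones. The nerve microRNA hairpins mir-124-1, mir-124-2 and mir-124-3 had a median of 0, and that of the liver microRNA mir-122 had reads in 19 mice. The other nerve hairpins, mir-9-1, mir-9-2 and mir-9-3, had reads in 20, 23 and 31 mice, with medians of 1.09, 1.24 and 2.38 RPM.

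In GRCm38 (mm10), RefSeq lists 12 nuclear genes for tRNA-Glu-CTC and 8 for tRNA-Glu-TTC, each 72 bases long. Of the tRNA-Glu-CTC genes 4 lie together on chromosome 1, at chr1:171064164-171064235, chr1:171071792-171071863, chr1:171079406-171079477 and chr1:171103043-171103114. The first of these is in an intron of Fcgr3, which encodes a receptor for IgG, and the other three are intergenic. By the GENCODE annotation 3 of the 12 tRNA-Glu-CTC genes are intronic, the others being in Arrb1 (chr7:99543900-99543971), which encodes a β-arrestin, and Hdgfl2 (chr17:56092001-56092072). Among the tRNA-Glu-TTC genes 4 of 8 are intronic, in the long non-coding RNA genes Platr30 (chr3:96346675-96346746) and Gm17575 (chr3:96387405-96387476), in the butyrophilin gene Btn1a1 (chr13:23463535-23463606) and in Elf1 (chr14:79481668-79481739), which encodes an ETS transcription factor. None overlaps an annotated exon. The counts are summed per anticodon, so that no value below belongs to a single gene copy.

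tRNA-Glu-CTC was the second most abundant isoacceptor in sperm and tRNA-Glu-TTC the sixth. Over all mice tRNA-Glu-CTC averaged 21612 ± 11037 RPM (SD, n = 38), between tRNA-Gly-GCC above it at 65877 ± 37224 and tRNA-Lys-CTT below it at 6962 ± 2906. tRNA-Glu-TTC averaged 3063 ± 1456 RPM, between tRNA-Val-CAC at 6172 ± 3525 and tRNA-Val-AAC at 2477 ± 1482. Within single mice, tRNA-Glu-CTC ranked second in 35 of 38, and its rank ran from 1 to 5. tRNA-Glu-TTC ranked sixth or seventh in 28 mice, 17 and 11 respectively, and its rank ran from 3 to 9. The highest level was 9.70 times the lowest for tRNA-Glu-CTC and 7.37 times for tRNA-Glu-TTC. Among the 42 isoacceptors with at least 10 reads in every mouse, their coefficients of variation over mice (51.1% and 47.5%) were in positions 27 and 32 from the most variable.

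Levels of tRNA-Glu-CTC were lowest on average in the CTCT group, at 17459 ± 9717 RPM (SD, n = 10), where the lowest mouse had 6002, the median was 15211 and the highest had 37944. In the CTPR group the lowest had 9649, the median was 23403 and the highest 52249 (mean 23730 ± 13378, n = 9). In the PRCT group they were 11520, 20253 and 58211 (mean 24850 ± 14534, n = 9). In the PRPR group they were 11120, 21279 and 26599 (mean 20944 ± 4985, n = 10), the narrowest range of the 4 groups. All 4 groups overlapped over most of their range, and neighbours in the order of means, PRCT, CTPR, PRPR and CTCT, differed by less than the spread between mice. The log2 fold change was −0.07 ± 0.34 (SE) for CTPR minus PRCT, 0.18 ± 0.33 for CTPR minus PRPR and 0.26 ± 0.32 for PRPR minus CTCT (adjusted p = 0.879, 0.704 and 0.877, edgeR's quasi-likelihood test, Benjamini-Hochberg over 53 isoacceptors). The first of these turned direction in 5 of the fits with 1 mouse left out. Its highest value, 0.20, came without mouse 59L1, the highest of the PRCT group. The second turned in 1 fit, to −0.05 without CTPR mouse 02A8. PRPR minus CTCT ran from 0.16 without CTCT mouse 09H7 to 0.46 without CTCT mouse 02A6.

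**Figure D1:**
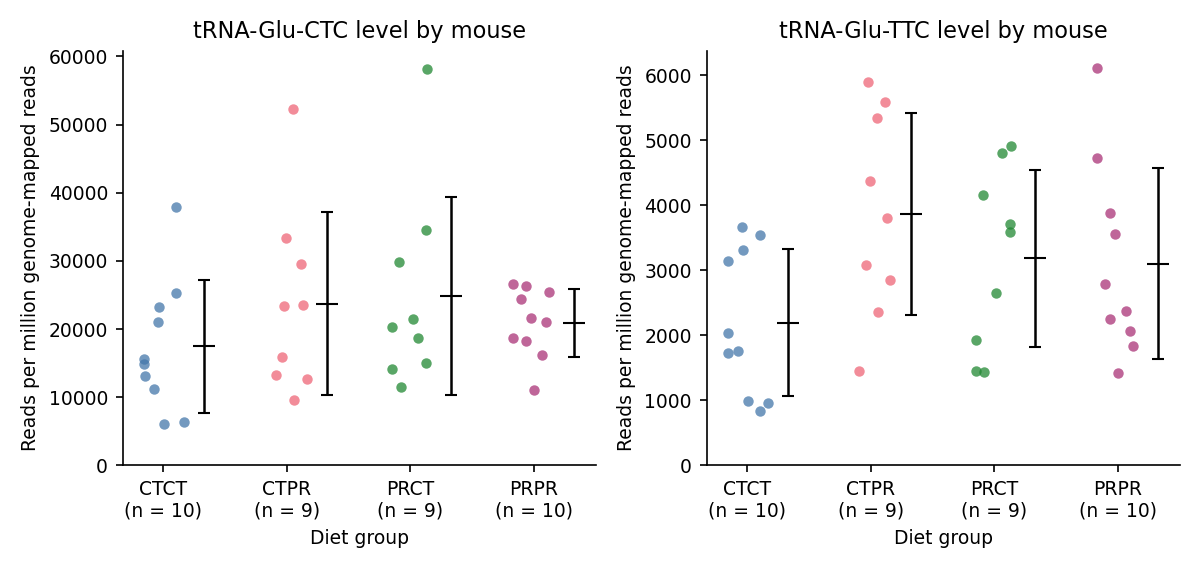
Levels of tRNA-Glu-CTC (left) and tRNA-Glu-TTC (right) in sperm, in RPM, with a point for each mouse and the group mean ± SD in black. The groups overlap in both panels. The highest tRNA-Glu-CTC value is 58211 in the PRCT group. For tRNA-Glu-TTC, 5 of 9 CTPR, 4 of 9 PRCT and 3 of 10 PRPR mice lie above every CTCT mouse.

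tRNA-Glu-TTC was also lowest on average in the CTCT group, with 830 RPM in the lowest mouse, a median of 1896 and 3674 in the highest (mean 2197 ± 1128, n = 10). The CTPR group had 1458, 3803 and 5901 for the same values (mean 3861 ± 1554, n = 9). The PRCT group had 1430, 3588 and 4918 (mean 3183 ± 1369, n = 9), and the PRPR group 1426, 2587 and 6116 (mean 3104 ± 1465, n = 10). The order of means was CTPR, PRCT, PRPR and CTCT. The first pair of neighbours differed by 0.28 ± 0.34 on the log2 scale and the second, PRPR minus PRCT, by −0.04 ± 0.33, with adjusted p = 0.546 and 0.967 by edgeR. PRPR minus CTCT gave 0.50 ± 0.32 (adjusted p = 0.877 by edgeR).

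Restriction after weaning alone was compared with the control diet by setting CTPR against CTCT. Of the 9 CTPR mice, 8 lay above the CTCT median for tRNA-Glu-TTC and 5 above the highest CTCT mouse, whereas for tRNA-Glu-CTC 6 lay above the median and 1 above the highest. For tRNA-Glu-TTC, 7 of 9 PRCT and 8 of 10 PRPR mice also lay above that median, and 4 and 3 above the highest CTCT mouse. Such counts were not made for the other isoacceptors. The CTPR minus CTCT log2 fold change was 0.81 ± 0.33 (SE) for tRNA-Glu-TTC (unadjusted p = 0.0170, adjusted p = 0.0698, edgeR) and 0.44 ± 0.33 for tRNA-Glu-CTC (unadjusted p = 0.188, adjusted p = 0.277, edgeR), so that neither passed the threshold of 0.05. In that comparison edgeR called 0 of 53 isoacceptors, 0% of those tested. At an unadjusted p under 0.05 it called 19, or 35.8%, all of them higher in CTPR, and tRNA-Glu-TTC is among them. DESeq2 called 0 with size factors from mapped reads (18 unadjusted) and 3 with its own size factors (5 unadjusted). The median log2 fold change over all 53 isoacceptors was 0.73, and 51 were positive. Counted from the largest, tRNA-Glu-TTC was in position 19 and tRNA-Glu-CTC in position 40.

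Summed marker hairpins of both kinds had their highest medians in the CTPR group. The 18 hairpins of other cells summed to a median of 3133 RPM in CTPR (96.4 to 9464) and of 1822 in CTCT (87.1 to 3826), 1434 in PRCT (467 to 3870) and 1351 in PRPR (306 to 4115). Those of spermatogenic cells summed to a median of 773 in CTPR (76.4 to 1425) and 314 in CTCT (17.4 to 848), with 383 in PRCT (136 to 713) and 358 in PRPR (110 to 1349). Their part in the tRNA-Glu values was not tested. In bulk sperm, a smaller share of cells that carry a fragment and less of it per cell cannot be told apart. The tRNA-Glu-TTC difference between CTPR and CTCT passed the threshold when CTPR mouse 09H5 (adjusted p = 0.0314), CTCT mouse 45L3 (adjusted p = 0.0366) or CTCT mouse 47I1 (adjusted p = 0.0466) was left out of the edgeR fit. These are 3 of the 38 fits with 1 mouse left out, and the other isoacceptors called in them were not counted. In the fit with all mice, 0.0698 by edgeR was the lowest adjusted p of the 53 isoacceptors in this comparison. tRNA-Glu-TTC shared it with tRNA-His-GTG, tRNA-Gly-GCC, tRNA-Gly-ACC and many others, so it is not particular to tRNA-Glu-TTC. Over all alternatives the adjusted p of tRNA-Glu-TTC ran from 0.0314 to 0.943. With the 47I mice exchanged it was 0.172. For tRNA-Glu-CTC the same difference ran from 0.21 without CTPR mouse 02A8 to 0.64 without CTCT mouse 02A6.

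Restriction before weaning alone (PRCT against CTCT) and throughout (PRPR against CTCT) gave smaller or similar differences. In PRCT the log2 fold change was 0.51 ± 0.33 (SE) for tRNA-Glu-CTC and 0.54 ± 0.33 for tRNA-Glu-TTC (both adjusted p = 0.932, edgeR), positions 10 and 8 among 53 isoacceptors whose median was 0.01. In PRPR they were 0.26 ± 0.32 and 0.50 ± 0.32 (both adjusted p = 0.877, edgeR), positions 20 and 10, with a median of 0.23 over all. edgeR called 0 isoacceptors (0%) in each of these comparisons, with 1 of 53 (1.89%) in PRCT and 0 in PRPR at an unadjusted p under 0.05, and neither count held a tRNA-Glu isoacceptor. On other scales tRNA-Glu-TTC in PRCT minus CTCT did have an unadjusted p under 0.05. It had 0.56 by edgeR with TMM factors (unadjusted p = 0.0149, adjusted p = 0.396) and 0.45 by DESeq2 with its own size factors (unadjusted p = 0.0435, adjusted p = 0.565). How many of the 53 isoacceptors had such a p with TMM factors was not counted. DESeq2 called 0 in both under either size factor, with 1 and 0 unadjusted by mapped reads and 2 and 1 by its own. Mouse 59L1 weighed on the PRCT value of tRNA-Glu-CTC, which was 0.24 without it, and 0.71 without CTCT mouse 02A6. The 3 comparisons with CTCT share the same control mice.

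**Figure D2:**
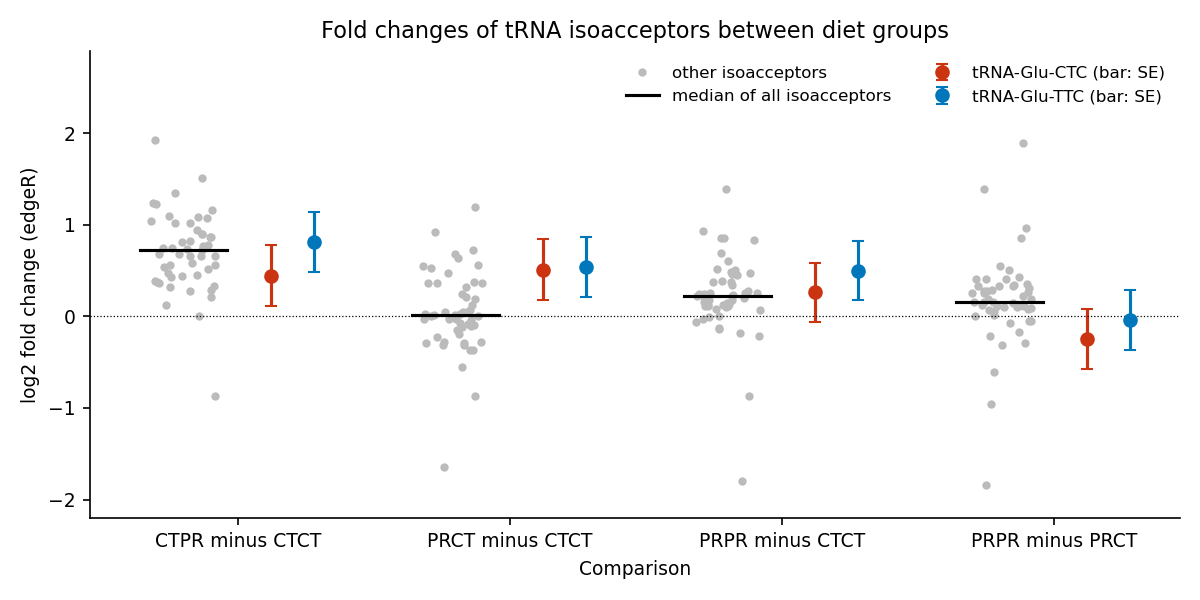
Log2 fold changes from edgeR for 53 tRNA isoacceptors in 4 comparisons, with a grey point for each of the other isoacceptors, a black line for the median of all 53, and tRNA-Glu-CTC (red) and tRNA-Glu-TTC (blue) with their SE. In CTPR minus CTCT the median is 0.73 and the tRNA-Glu values are 0.44 and 0.81, and in PRCT minus CTCT the median is 0.01 and they are 0.51 and 0.54.

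Restriction after weaning in offspring of restricted dams (PRPR against PRCT) gave −0.25 ± 0.33 for tRNA-Glu-CTC and −0.04 ± 0.33 for tRNA-Glu-TTC (adjusted p = 0.953 and 0.967, edgeR), where the median of all isoacceptors was 0.15. Both were positive without mouse 59L1, at 0.02 and 0.07. Of the fits with 1 mouse left out, tRNA-Glu-CTC was positive in 1 and tRNA-Glu-TTC in 8. edgeR called 0 of 53 (0%), also at an unadjusted p under 0.05, and DESeq2 called 0 with either size factor (0 and 1 unadjusted). The difference between the effects of the post-weaning diet in the 2 kinds of litter, (CTPR minus CTCT) minus (PRPR minus PRCT), was 0.69 ± 0.47 for tRNA-Glu-CTC and 0.85 ± 0.46 for tRNA-Glu-TTC (unadjusted p = 0.148 and 0.0729, both adjusted p = 0.486, edgeR). For tRNA-Glu-CTC it was 0.42 without mouse 59L1 and 0.89 without mouse 02A6. For that difference edgeR called 0 of 53 (0%) and 2 (3.77%) at an unadjusted p under 0.05, neither of them tRNA-Glu, and DESeq2 called 0 (2 and 4 unadjusted).

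A list of 12 other isoacceptors known for fragments in sperm, of tRNA-Gly, -Val, -His, -Lys, -Asp and -Gln, was read from the same fit, and 0 of 12 passed the threshold in any of these comparisons. In CTPR minus CTCT all 12 were positive, as were 51 of 53 over all, with a median of 0.56 against 0.73 over all isoacceptors. tRNA-His-GTG, with 1.09 ± 0.36, and tRNA-Gly-GCC, with 0.94 ± 0.38, were among the 3 of 12 at an unadjusted p under 0.05 (both adjusted p = 0.0698, edgeR), against 19 of 53 (35.8%) over all isoacceptors. In PRCT minus CTCT 4 of 12 were positive (median −0.11), against 28 of 53 over all, and tRNA-Asp-GTC was the highest with 0.63 ± 0.37. In PRPR minus CTCT 11 of 12 were positive (median 0.19), against 44 of 53 over all, and in PRPR minus PRCT 10 of 12 (median 0.34), against 40 of 53. The difference between the post-weaning effects was positive in 9 of 12 (median 0.24), against 45 of 53 over all, and 1 of the 12 had an unadjusted p under 0.05. By DESeq2's own size factors, which hold the typical isoacceptor fixed, the CTPR minus CTCT value became −0.52 for tRNA-Glu-CTC and 0.06 for tRNA-Glu-TTC. With the summed tRNA reads as library size they were −0.32 and 0.10, so that the direction for tRNA-Glu-CTC rests on the scale.

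As a share of tRNA reads, tRNA-Glu-CTC ran from 7.41% to 46.1% over the 38 mice and tRNA-Glu-TTC from 1.49% to 6.30%. For tRNA-Glu-CTC the lowest, median and highest shares were 9.88%, 15.1% and 46.1% in CTCT (mean 19.7 ± 11.4, n = 10) and 7.41%, 11.99% and 30.2% in CTPR (mean 15.8 ± 8.14, n = 9). They were 9.50%, 21.9% and 30.9% in PRCT (mean 21.8 ± 6.78, n = 9) and 10.7%, 18.4% and 35.1% in PRPR (mean 19.5 ± 7.13, n = 10). The CTPR group thus had the lowest mean share of tRNA-Glu-CTC and the second highest mean level. tRNA itself was 15.9 ± 5.98% of mapped reads in CTPR, against 9.57 ± 4.08% in CTCT, 12.2 ± 6.69% in PRCT and 11.7 ± 4.32% in PRPR.

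For tRNA-Glu-TTC the group medians lay close together, at 2.26% in CTCT (1.49% to 3.59%), 2.39% in CTPR (1.81% to 3.09%), 2.47% in PRCT (2.00% to 4.16%) and 2.44% in PRPR (1.96% to 6.30%). The means were 2.30 ± 0.67, 2.46 ± 0.43, 2.80 ± 0.74 and 2.74 ± 1.28 in the same order, and 3 mice, 2 PRCT and 1 PRPR, lay above the highest CTCT mouse. No share differed between groups beyond the spread between mice, in tests that did not pair littermates. In two-sided permutation tests on the mean share, exact where a group held 9 mice, CTPR minus CTCT was −3.87 percentage points for tRNA-Glu-CTC (p = 0.430) and 0.16 for tRNA-Glu-TTC (p = 0.549). PRCT minus CTCT was 2.14 and 0.50 points (exact p = 0.644 and 0.142) and PRPR minus CTCT −0.17 and 0.44 (permutation p = 0.970 and 0.433). PRPR minus PRCT was −2.31 and −0.06 (exact p = 0.478 and 0.922), and the difference between the post-weaning effects −1.56 and 0.22 (permutation p = 0.787 and 0.725). All 10 comparisons had an adjusted p of 0.970 in these permutation tests. Single mice weighed on these differences. For the tRNA-Glu-CTC share, CTPR minus CTCT ran from −5.66 points without CTPR mouse 02A8 to −0.93 without CTCT mouse 07C3, PRCT minus CTCT from 1.00 without PRCT mouse 08G3 to 5.07 without 07C3, and PRPR minus PRCT from −4.05 without PRPR mouse 14A5 to −1.18 without 08G3. For the tRNA-Glu-TTC share, CTPR minus CTCT ran from 0.07 without CTCT mouse 57P3 to 0.30 without CTCT mouse 09H7, PRCT minus CTCT from 0.33 without PRCT mouse 39F5 to 0.64 without 09H7, and PRPR minus CTCT from 0.04 without PRPR mouse 08G5 to 0.58 without 09H7. Its difference between the post-weaning effects ran from 0.05 without 39F5 to 0.61 without 08G5.

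**Figure D3:**
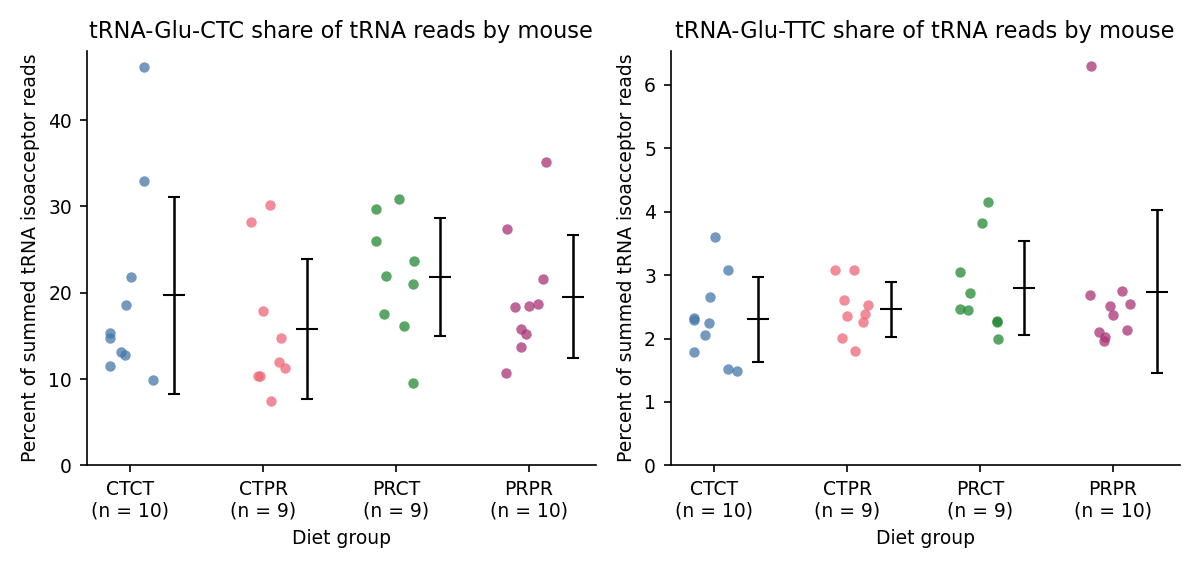
Reads of tRNA-Glu-CTC (left) and tRNA-Glu-TTC (right) as a percentage of the reads of all 53 tRNA isoacceptors, with a point for each mouse and the group mean ± SD in black. CTCT mouse 07C3 stands at 46.1% for tRNA-Glu-CTC, and PRPR mouse 08G5 at 6.30% for tRNA-Glu-TTC.

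The ratio of tRNA-Glu-CTC to tRNA-Glu-TTC reads ran from 3.88 to 30.5, with a median of 6.91. Group medians were 6.54 in CTCT, 5.29 in CTPR, 8.09 in PRCT and 7.30 in PRPR, and apart from mouse 07C3 no CTCT mouse exceeded 10.7. Across mice the log2 levels of the pair had a Pearson correlation of 0.68 (Spearman 0.68, n = 38), and their log2 shares 0.36 (Spearman 0.45), or 0.54 without mouse 07C3. These are descriptions, since levels share the mapped reads and shares the tRNA total of each mouse. The level of tRNA-Glu-TTC followed total tRNA closely (r = 0.87) and that of tRNA-Glu-CTC less so (r = 0.64), and mice with more tRNA had lower tRNA-Glu-CTC shares (r = −0.46) and, to a lesser degree, lower tRNA-Glu-TTC shares (r = −0.19).

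Among the 41 other isoacceptors with at least 10 reads in every mouse, those most like tRNA-Glu-CTC in log2 level were tRNA-Asp-GTC (r = 0.88), tRNA-Glu-TTC (r = 0.68) and tRNA-His-GTG (r = 0.67). tRNA-Asp-GTC, which carries aspartate, averaged 2193 ± 1506 RPM. Those most like tRNA-Glu-TTC were tRNA-Gly-GCC (r = 0.85), tRNA-Thr-TGT (r = 0.80) and tRNA-His-GTG (r = 0.77). On shares, tRNA-Asp-GTC was again nearest to tRNA-Glu-CTC (r = 0.79), followed by tRNA-Ser-GCT (r = 0.68) and tRNA-Ser-AGA (r = 0.46), while tRNA-Glu-TTC had no r above 0.41, its nearest being tRNA-Ser-AGA (0.41), selenocysteine tRNA-SeC-TCA (0.40) and tRNA-Glu-CTC (0.36).

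Littermates had similar tRNA-Glu shares. Over 17 litters with a mouse on each post-weaning diet, deviations from the group mean of the log2 share correlated at 0.85 between littermates for tRNA-Glu-CTC and 0.65 for tRNA-Glu-TTC, against 0.51 and 0.43 for the levels. Taken by dam diet, the tRNA-Glu-CTC levels of littermates correlated at 0.705 in the 8 CT litters and 0.117 in the 9 PR litters, and the tRNA-Glu-TTC levels at 0.514 and 0.373. The median difference between littermates, without sign, was 0.24 on the log2 scale for the tRNA-Glu-CTC share and 0.21 for the tRNA-Glu-TTC share, where litter means had an SD of 0.58 and 0.36. For levels the littermate differences were 0.51 and 0.56, close to the SD of litter means, 0.63 and 0.59.

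Within CT litters, the CTPR mouse had the higher tRNA-Glu-CTC level in 7 of 8, by a mean of 0.47 ± 0.67 on the log2 scale (SD, from −0.73 in litter 45L to 1.16 in litter 49K). It had the higher tRNA-Glu-TTC level in 6 of 8, by 0.67 ± 0.74 (−0.37 in 45L to 1.75 in 35F). Within PR litters the PRPR mouse was higher in 5 of 9 for each, with means of −0.14 ± 0.79 and −0.03 ± 0.78, and litter 59L had the lowest difference of both, −1.68 and −1.13. In the CT litters, tRNA as a whole was also a higher percentage of mapped reads in the CTPR mouse, except in 45L (11.2% against 16.4%). These are the same litters as for the tRNA-Glu-CTC level, so its 7 of 8 is not particular to tRNA-Glu-CTC. Litters were not counted in this way for the other isoacceptors. For tRNA-Glu-CTC, the mouse restricted after weaning had the higher share in 2 of 8 CT litters (mean difference −0.70 ± 3.44 percentage points, exact sign-flip permutation p = 0.555) and in 3 of 9 PR litters (−2.18 ± 4.98, exact p = 0.211). For tRNA-Glu-TTC it did so in 5 of 8 CT litters (0.08 ± 0.41, exact sign-flip permutation p = 0.531) and in 3 of 9 PR litters (0.01 ± 1.08, exact p = 0.973).

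The litters themselves differed widely. Mean tRNA-Glu-CTC shares ran from 8.65% in litter 57P to 46.1% in litter 07C, and the 5 highest belonged to the litters with the 5 lowest numbers, 07C (46.1%), 14A (32.4%), 02A (31.6%), 08G (29.1%) and 09H (25.0%). In 9 mice of these litters the share was 21.8% to 46.1% (median 30.2%), against 7.41% to 26% (median 15.3%) in the 29 other mice. The 26% is that of PRCT mouse 31A3, whose isoacceptor rows sum to 469889 reads against a listed tRNA total of 352056. Its share would be higher over that listed total, and it is the only mouse in which the 2 totals differ by over 1%. The 5 litters comprise 3 of CT and 2 of PR dams and gave 2 or 3 mice to every group. They had less tRNA, with a median of 6.94% of mapped reads against 13.3%, and a higher median tRNA-Glu-TTC share, 3.09% against 2.29%. The set was seen in the data, so no test is given, and what a litter's number stands for beyond its name is not given in the sources used here. Without these litters the difference PRCT minus CTCT in tRNA-Glu-CTC share was 5.68 points in place of 2.14, and in tRNA-Glu-CTC level 0.84 in place of 0.51 on the log2 scale. Leaving them out takes away the highest shares of both groups, those of 3 CTCT and 2 PRCT mice. The set was picked by this same share, so no conclusion about diet is drawn from these values.

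**Figure D4:**
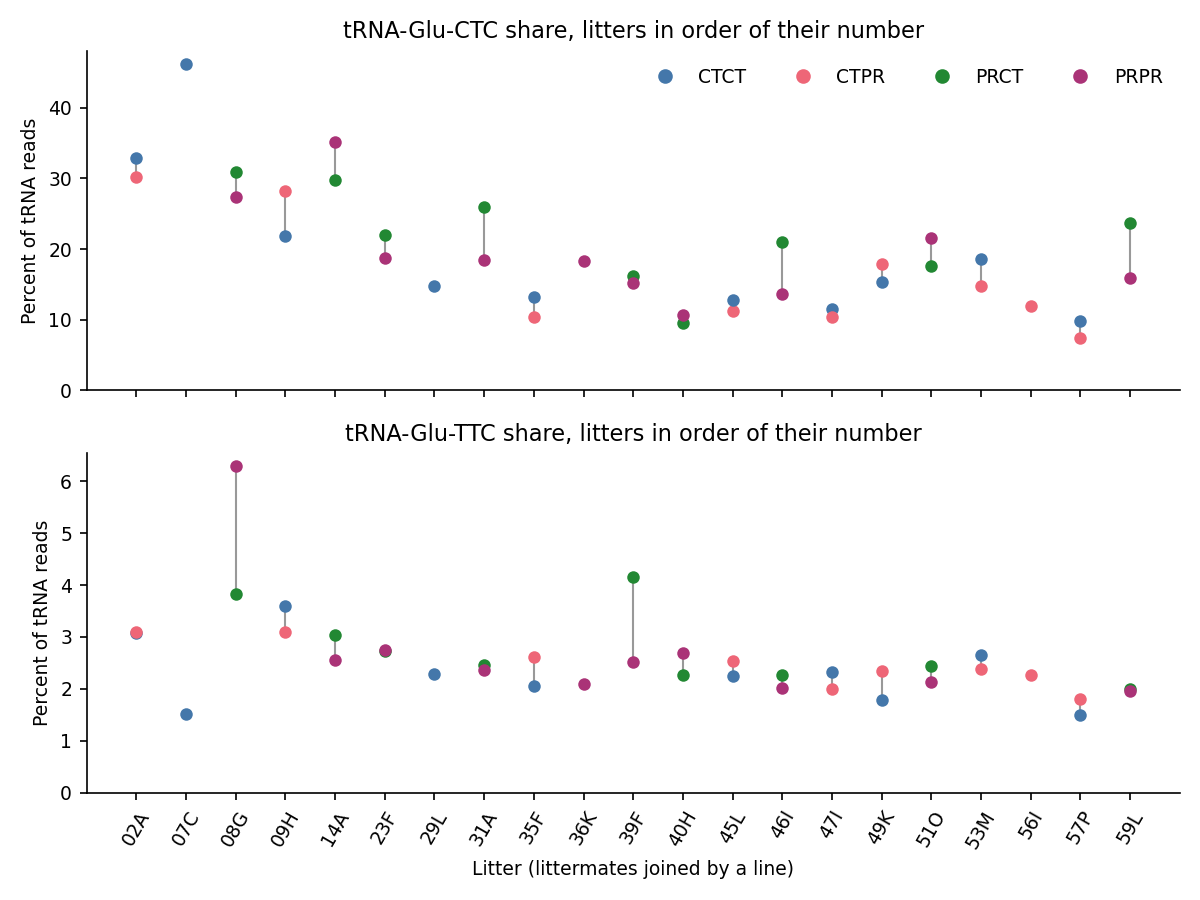
Share of tRNA reads of tRNA-Glu-CTC (top) and tRNA-Glu-TTC (bottom) for each mouse, with litters in order of their number, littermates joined by a grey line and colours for the diet groups. The first 5 litters have the highest mean tRNA-Glu-CTC shares (25.0% to 46.1%), in both CT and PR litters.

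Most reads of both isoacceptors came from the 5′ end. The files list, beside each whole isoacceptor, reads at its 5′ end, its 3′ end and its CCA tail, the bases added to the 3′ end of a mature tRNA. Reads at the 5′ end numbered 92.1 ± 1.72% of all tRNA-Glu-CTC reads (86.2% to 97.0%, n = 38) and 78.9 ± 5.67% of tRNA-Glu-TTC reads (61.4% to 91.7%). tRNA-Glu-CTC had the higher value in all 38 mice, by 13.3 ± 5.13 percentage points averaged over 21 litters (SD, sign-flip permutation p = 1e-05, the smallest these permutations can give). Taken over the 5′, 3′ and genome-matching CCA rows in place of the whole row, the difference shrank to 2.59 ± 2.49 points. It was still in the same direction in all 38 mice. CCA-end reads that do not match the genome, the larger part of the CCA reads, are left out of this value. By group the tRNA-Glu-TTC value was 75.5 ± 5.96% in CTCT, 81.4 ± 3.71% in CTPR, 80.3 ± 5.76% in PRCT and 78.9 ± 5.84% in PRPR, and that of tRNA-Glu-CTC was 91.4% to 92.4% in all groups. These group differences were not tested.

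The 5′ rows do not name isoacceptors the way the whole rows do. For tRNA-Gly-CCC and tRNA-Val-AAC the 5′ row exceeded the whole row in all 38 mice (14227710 against 1624671 reads for tRNA-Gly-CCC), while for tRNA-Gly-GCC it held 1486747 of 16061059 reads. The differences of 81.8 points for tRNA-Glu-CTC and 68.5 points for tRNA-Glu-TTC from tRNA-Gly-GCC thus compare rows that do not hold the same reads. With tRNA-Gly-GCC, tRNA-Gly-CCC and tRNA-Gly-TCC summed, a choice made after seeing these counts, the 5′ value was 89.3 ± 2.39%. tRNA-Glu-CTC lay 2.74 ± 1.07 points above it, higher in 37 of 38 mice, and tRNA-Glu-TTC 10.6 points below it, lower in 36 of 38 (sign-flip permutation p = 1e-05 for each over 21 litters, the smallest possible). That sum leaves out tRNA-Gly-ACC, the remaining tRNA-Gly isoacceptor, and with it the 5′ value was 89.5 ± 2.35% and the differences 2.55 ± 1.15 and −10.8 ± 5.25 points (permutation p = 2e-05 and 1e-05). For both tRNA-Glu isoacceptors the 5′ row was below the whole row in every mouse, but reads common to tRNA-Glu-CTC and tRNA-Glu-TTC may still be named differently in the 2 kinds of row.

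**Figure D5:**
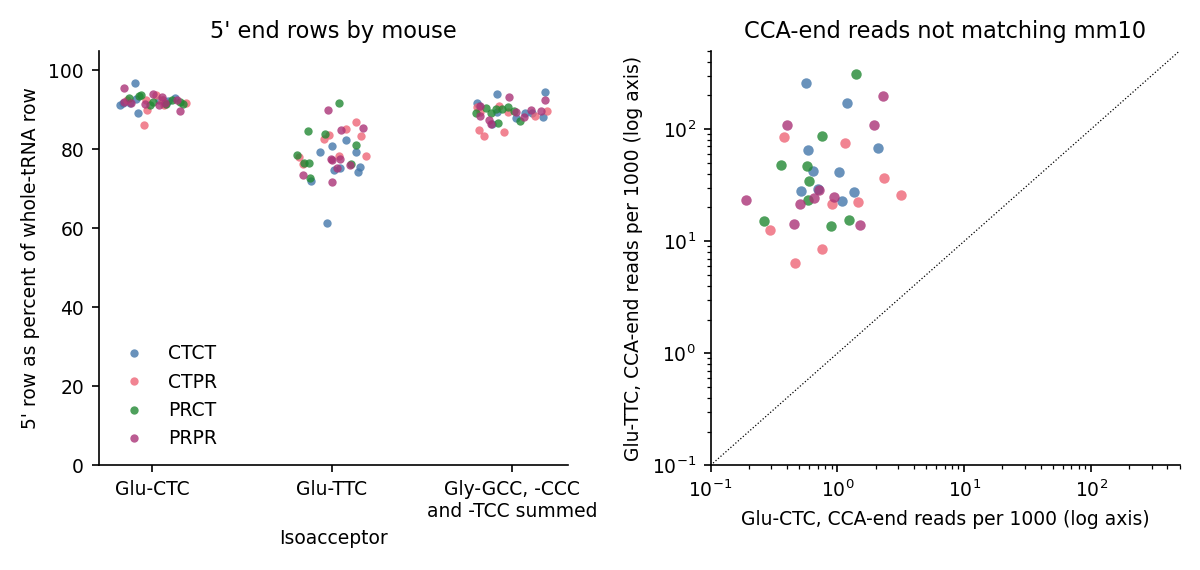
Left, 5′ rows as a percentage of the whole row for tRNA-Glu-CTC, tRNA-Glu-TTC and the sum of tRNA-Gly-GCC, tRNA-Gly-CCC and tRNA-Gly-TCC, with a point for each mouse. Right, CCA-end reads that do not match the genome per 1000 reads of the whole row, on log axes, with a dotted line of equal values. tRNA-Glu-TTC is lower than tRNA-Glu-CTC in all 38 mice on the left and above the line in all 38 on the right.

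Reads in the rows of the other end were few but mostly in those of tRNA-Glu-TTC. Its 3′ row summed to 6969 reads over all mice, against 690 for tRNA-Glu-CTC, although tRNA-Glu-CTC had 5128746 reads in all and tRNA-Glu-TTC 735874. Per 1000 reads of the whole row, the 3′ row held 11.4 ± 5.56 for tRNA-Glu-TTC and 0.16 ± 0.09 for tRNA-Glu-CTC (SD, n = 38), and tRNA-Glu-TTC was higher in all 38 mice. CCA-end reads outside the genome match, where tRNA reads with an added CCA are found because the genes do not encode it, numbered 28518 for tRNA-Glu-TTC and 4045 for tRNA-Glu-CTC. Per 1000 reads of the whole row they were 57.9 ± 68.6 and 0.97 ± 0.67. In tRNA-Glu-TTC they ran from 6.34 in CTPR mouse 56I1 to 308 in PRCT mouse 23F4, with group medians of 41.8 in CTCT, 22.3 in CTPR, 34.2 in PRCT and 24.4 in PRPR. These CCA rows missed their own class total by a median of 25.0% over mice, so that their size is uncertain. The rows of the other end also need not name isoacceptors the way the whole rows do. For tRNA-Gly-ACC the 3′ row held 6597 reads and the CCA row outside the genome match 30203, against 5725 in the whole row. The excess of tRNA-Glu-TTC is thus one of rows, and reads common to both tRNA-Glu isoacceptors may be named differently in them.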

How the data were processed

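The authors annotated small RNA reads (NEBNext libraries) with the SPORTS pipeline against mm10 and databases of small RNA. The deposited values are raw read counts for classes and their members in each mouse. The database versions are not given in the sources used here. The 53 isoacceptors of genome-matching tRNA were tested in edgeR 4.0.16 under R 4.3.3 (estimateDisp, glmQLFit with legacy off, glmQLFTest), with all 38 mice in 1 fit, mapped reads as library size and Benjamini-Hochberg adjustment. A nameless row (1 read in all) was left out. SE is the fold change over the root of F. DESeq2 1.42.0 was an alternative. Shares were tested by two-sided permutation (exact, or 100000 resamples), adjusted over 10 comparisons. The tests were checked on simulated data. The members, the 12 isoacceptors listed and the markers were chosen with earlier results of these data known. Isoacceptors named besides are those next in level and the 3 most alike. Litters come from the mouse names, and littermates' tRNA-Glu levels deviated together (correlation 0.51 and 0.43 over 17 pairs, 0.705 and 0.514 in CT and 0.117 and 0.373 in PR litters), so the litter was a block in an alternative. The 95% binomial intervals (Clopper-Pearson, counting error only) of a mouse's share were at most 0.386 percentage points wide. No 2 mice of a group had the same counts within sampling noise (chi-square per degree of freedom at least 143). Separate animals are the replicates, but littermates share a dam. RefSeq and GENCODE vM21 gave the gene positions.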

Additional observations from a re-analysis of the deposited data

Results flagged for a closer look

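In 28 sets of group values (7 measures in 4 groups), 6 held a mouse set apart from its group by Dixon's test, where chance gives about 1 in 20 sets. PRCT mouse 59L1 had a tRNA-Glu-CTC level of 58211 RPM, next to 34460 in the nearest mouse, and the most mapped reads of all mice. PRPR mouse 08G5 had a tRNA-Glu-TTC share of 6.30%, next to 2.76%, and its PRCT littermate 08G3 had 3.82%. CTCT mouse 07C3 had a tRNA-Glu-CTC to tRNA-Glu-TTC ratio of 30.5, next to 10.7, with both the highest tRNA-Glu-CTC share and the lowest tRNA-Glu-TTC level of all 38 mice. The same mouse had 97.0% of its tRNA-Glu-CTC reads in the 5′ row, next to 93.0%. CTPR mouse 57P1 had the lowest such value, 86.2%, next to 90.1%. CTCT mouse 02A6 had 61.4% of its tRNA-Glu-TTC reads in the 5′ row, next to 72.0%, and the fewest mapped reads of all mice. The causes were not tested.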

How the results depend on the processing

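No comparison of levels or shares passed the threshold under any alternative that kept every mouse or left out a named litter or set of mice. Of 212 level values under such alternatives 194 kept their direction and 18 turned, and of 106 share values 95 kept it and 11 turned. Leaving out 1 mouse at a time, 476 of 494 level values and 365 of 380 share values kept both direction and side.

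For CTPR minus CTCT, tRNA-Glu-CTC turned to −0.31 with TMM, −0.32 with summed tRNA reads as library size and −0.52 with DESeq2's own size factors, in the same order as PRPR minus CTCT to −0.042, −0.013 and −0.17 and CTPR minus PRPR to −0.27, −0.30 and −0.34 (−0.055 without litter 02A). tRNA-Glu-TTC, CTPR minus PRCT, turned to −0.37, −0.19 and −0.39, and the difference of post-weaning effects in tRNA-Glu-CTC to −0.15 with summed tRNA reads and −0.20 with DESeq2's own factors. These scales measure change relative to other tRNA. Without mouse 59L1, PRPR minus PRCT turned to 0.018 for tRNA-Glu-CTC and 0.065 for tRNA-Glu-TTC, and CTPR minus PRCT to 0.20 for tRNA-Glu-CTC. With each mouse left out in turn, these 3 values turned in 1, 8 and 5 fits.

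The tRNA-Glu-CTC share, PRPR minus CTCT, turned to 0.081 on the log2 scale, and to 3.13 points over tRNA other than tRNA-Gly, 1.30 without litter 02A, 1.44 without mice 07C3, 35F2, 31A3 and 08G5 and 2.86 without litters 02A, 07C, 08G, 09H and 14A (a set chosen after seeing the data). Its difference of post-weaning effects turned to 3.63 without tRNA-Gly, 1.29 without the 4 mice, 1.11 without the 5 litters and 1.48 with litter as a block. The tRNA-Glu-TTC share turned to −0.086 for PRPR minus CTCT without the 4 mice and to 0.011 for PRPR minus PRCT with litter as a block.

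With the replicate block by litter, levels differed between CTPR and CTCT by 0.47 for tRNA-Glu-CTC (adjusted p = 0.225, edgeR) and 0.67 for tRNA-Glu-TTC (adjusted p = 0.103, edgeR), and the block changed no call. Comparisons across dam diets share no litter and could not be blocked, and the fit with only the 2 groups compared does not apply to the difference of post-weaning effects.

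Leaving out each mouse gave ranges of 0.71 to 0.93 for the tRNA-Glu-TTC level (CTPR minus CTCT), −0.30 to 0.20 and −0.055 to 0.28 for tRNA-Glu-CTC (CTPR minus PRCT and minus PRPR), −0.34 to 0.018 for tRNA-Glu-CTC and −0.20 to 0.065 for tRNA-Glu-TTC (PRPR minus PRCT). For shares they were −1.91 to 2.76 points for tRNA-Glu-CTC (PRPR minus CTCT), −3.35 to 1.38 for its difference of post-weaning effects, and −0.46 to 0.11 for tRNA-Glu-TTC (PRPR minus PRCT).

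As a share of 5′, 3′ and genome-matching CCA rows, the 5′ difference from tRNA-Gly-GCC was 0.034 points for tRNA-Glu-CTC (permutation p = 0.376) and −2.56 for tRNA-Glu-TTC. The tRNA-Glu-CTC minus tRNA-Glu-TTC difference was then 2.59 points and stayed past the threshold. As a share of the whole row, the tRNA-Glu-TTC difference was −10.6 against tRNA-Gly-GCC, tRNA-Gly-CCC and tRNA-Gly-TCC summed and −10.8 with tRNA-Gly-ACC added. Depth limits the 3′ and CCA rows, which also missed their class totals by over 1% in 13 and 32 mice (genome-matching rows). The 5′, 3′ and CCA values are limited by how the rows name isoacceptors, and the levels and shares by the spread between mice.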
